A study of Arabidopsis thaliana with 54 samples.

Results

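The 42 genes described here are the nuclear genes of Arabidopsis thaliana that encode the light-harvesting antenna proteins and nuclear-encoded subunits of photosystems I and II. They were taken by gene identifier from the gene count table, which lists 36632 genes. The rule uses no measured value, but the set was proposed with earlier results of these data known. All 42 were found in the table, and all 42 passed the filter on low counts that left 20720 genes for testing. The set holds 5 LHCB1 genes, 3 LHCB2 genes, LHCB3, 5 genes of the minor antenna (LHCB4.1, LHCB4.2, LHCB4.3, LHCB5 and LHCB6), LHCA1 to LHCA4, the linkers LHCA5 and LHCA6, 12 PSA subunits of photosystem I, 6 subunits grouped as the oxygen-evolving complex of photosystem II, the quenching protein gene PSBS and 3 small membrane subunits of photosystem II.

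Whole rosettes of wild-type Columbia-0 plants were sampled by RNA sequencing before (0 h) and at 5 times within 24 h of transfer to 4 °C (2, 4, 6, 12 and 24 h), in 3 conditions and 3 independent experiments, which gave 54 libraries in 18 groups of 3. In C28P, plants aged 28 days met cold for the first time. In C35P, plants aged 35 days, grown as a developmental control, met cold for the first time. In C28PLT, plants were cold-treated for 3 days at the age of 28 days (priming), returned to warm conditions for 7 days (lag) and then cooled again (triggering). No mutant or transgene was used, and each library pooled the material of 5 samples. The 0 h plants grew at 20 °C by day and 16 °C by night under 200 µmol quanta per square metre and second in 16 h days, and the cold chamber gave 90 µmol, so that low temperature and dimmer light cannot be told apart. Among the cold samples, those at 24 h share the time of day of the 0 h samples, and no warm sample was taken at 2 to 12 h, so that at those times cold and time of day cannot be told apart.

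Light-harvesting chlorophyll-binding proteins surround both photosystems of the thylakoid membrane and pass absorbed energy to the reaction centres. LHCB proteins serve photosystem II, where LHCB1, LHCB2 and LHCB3 form the major trimers and LHCB4, LHCB5 and LHCB6 connect the trimers to the core, while LHCA proteins form the antenna of photosystem I. The reaction centre proteins themselves are made in the chloroplast, but many peripheral subunits are encoded in the nucleus, often by small families of close copies, and nuclear antenna genes are known for strong transcription in leaves under the control of light and the circadian clock.

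Levels are counts-per-million values scaled by TMM (trimmed mean of M-values), written CPM, and per-library values are listed in the order of experiments 1 to 3. The libraries held 23408399 to 34452480 counts each. Markers of leaf photosynthesis outside the set, such as the Rubisco gene RBCS1A, were abundant in every library, whereas the 4 root hair markers reached at most 6 counts and the 5 floral organ markers at most 97 counts, with AP3 at 0 in 15 libraries. The 0 h library of experiment 1 in C28P stands apart: the clock gene PRR5 reached 77.2 CPM there, and 0.949 and 1.14 CPM in experiments 2 and 3. Without it 12 genes of the set fell at 6 h in C28P in place of 6, 20 at 12 h in place of 22 and 39 at 24 h in place of 38, and the shares of all genes that fell were 12.8%, 11.9% and 16.9%. Replicates are pools from separate experiments. Changes are log2 fold changes from edgeR's quasi-likelihood test fitted on all 54 libraries, with Benjamini-Hochberg adjustment over all 20720 genes and a call at an adjusted p under 0.05.

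After 24 h at 4 °C most genes of the set had fallen in all 3 conditions and none had risen. In C28P 38 of the 42 genes fell (90.5%), against 15.3% of all genes tested. In C35P 37 of 42 fell (88.1%), against 14% of all genes. In C28PLT 32 of 42 fell (76.2%), against 11.3% of all genes. The median log2 change over the 42 genes was -1.31 in C28P, -1.16 in C35P and -1.06 in C28PLT, whereas the median over all genes tested was 0.0376, 0.0513 and 0.0167. The extremes were PSAD2, a stromal subunit that docks ferredoxin to photosystem I, with a mean log2 change of -3.02 over the conditions, and LHCB1.1, an LHCB1 copy, with -0.0376. In a whole rosette, fewer cells of a type and less RNA per cell cannot be told apart.

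The fall at 24 h was seen in each experiment. In C28P every 24 h library lay below every 0 h library for 39 of the 42 genes, against 20.2% of all genes tested. The same separation was found for 38 genes in C35P (17.9% of all genes) and for 33 genes in C28PLT (15.3% of all genes), and for none in the opposite direction. Within experiments, the median log2 change was -1.18, -1.2 and -1.52 in experiments 1 to 3 of C28P, -1.78, -0.851 and -1.0 in C35P and -0.885, -1.38 and -0.993 in C28PLT. All 42 genes were lower at 24 h in each experiment of C28P and in experiment 1 of C35P, and at least 38 of 42 were lower in each of the others. When any 1 library was left out, 36 of the 38 calls in C28P, 32 of the 37 in C35P and 27 of the 32 in C28PLT were still made. In C28P the calls of PSAN (adjusted p = 0.0611) and PSBR (adjusted p = 0.0886), both edgeR, were lost without the 0 h library of experiment 3. In C35P those of LHCB1.2, LHCB2.1, PSAE2, PSAH1 and PSBW were lost without the 0 h or the 24 h library of experiment 1. In C28PLT those of PSAG, PSAL, PSAN and PSBX were lost without the 24 h library of experiment 2 or the 0 h library of experiment 3, that of PSAL also without the 24 h library of experiment 1, and that of PSBO1 without the 0 h library of experiment 2 or the 24 h library of experiment 3. Fitting only the 2 groups compared, with far fewer degrees of freedom, left 24 calls in C35P and 17 in C28PLT, where 6.82% and 6.01% of all genes fell. With the experiment as an additive block, 38, 38 and 35 genes fell, against 16.9%, 16.2% and 12.7% of all genes. The added calls were PSBR in C35P and LHCB1.2, PSAH1 and PSBW in C28PLT.

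**Figure D1:**
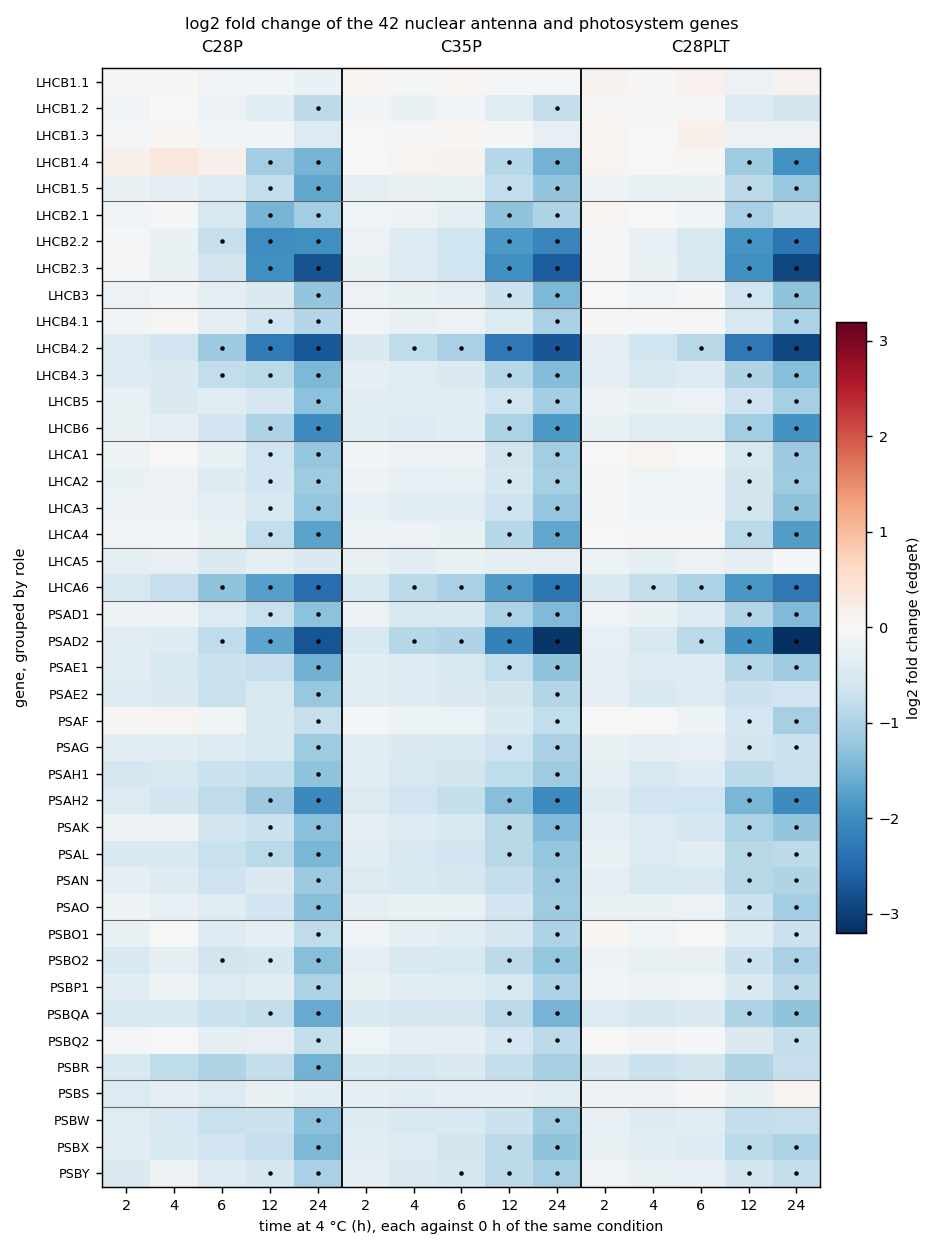
Log2 fold change of each of the 42 genes (rows, grouped by role) at 2, 4, 6, 12 and 24 h at 4 °C against 0 h of the same condition (columns, C28P, C35P and C28PLT). Blue is lower, black dots mark genes called by edgeR, and the blue deepens towards 24 h in all 3 conditions, where the medians were -1.31, -1.16 and -1.06, and the rows of LHCB1.1, LHCB1.3, LHCA5 and PSBS stay pale.

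Most calls came late in the time course, while the median change of the set was below 0 from 2 h on. At 2 h the log2 change was below 0 for 40, 41 and 31 of the 42 genes in C28P, C35P and C28PLT. The medians were -0.225, -0.285 and -0.156, and -0.0573, -0.134 and -0.0932 with scaling by total counts. Without experiment 3 the median in C28P was -0.00144. The summed CPM of the set in C28P was 202820, 201330 and 266290 at 0 h in experiments 1 to 3. At 2 h it was 215270, 201700 and 158840, so that only experiment 3 was lower. Every 2 h library lay below every 0 h library for 11, 5 and 3 genes, against 4.65%, 7.91% and 6.34% of all genes. At 6 h this held for 29, 14 and 9 genes, against 15.4%, 15.9% and 16.1%. At 2 h no gene of the set was called in any condition, while 0.208% of all genes fell in C28P, 0.541% in C35P and 0.555% in C28PLT. At an unadjusted edgeR p under 0.05 the set held 3, 1 and 0 genes, and all genes 2512, 1957 and 2303 of 20720. The 0.208% in C28P became 1.08% without the 0 h library of experiment 1, and ranged from 0.0572% to 0.286% without any 1 of the other 5 libraries compared. DESeq2 and the other settings called none at 2 h either. At 4 h no gene was called in C28P, 3 were called in C35P and 1 in C28PLT, where 3.88%, 4.61% and 5.22% of all genes fell. In C28P 4 genes of the set, and 4046 of all 20720, had an unadjusted edgeR p under 0.05 at 4 h. At 6 h 6, 4 and 3 genes of the set fell, or 14.3%, 9.52% and 7.14%, against 9.71%, 8.57% and 8.22% of all genes, so that the share of the set was close to that of all genes in C35P and C28PLT. The set held 22, 13 and 5 genes at an unadjusted edgeR p under 0.05 at 6 h, and all genes 6449, 5826 and 5889 of 20720. At 12 h 22 genes fell in C28P (52.4%), 28 in C35P (66.7%) and 30 in C28PLT (71.4%), against 10.5%, 12.5% and 12.5% of all genes. The median of the set stood at -0.66, -0.776 and -0.796 at 12 h.

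The earliest to be called were LHCA6, which links photosystem I to the NDH complex of cyclic electron flow, PSAD2 and LHCB4.2, a copy of the minor antenna protein CP29. In C35P all 3 were called at 4 h, LHCB4.2 at -0.82 (adjusted p = 0.0328), LHCA6 at -0.86 (adjusted p = 0.0227) and PSAD2 at -0.91 (adjusted p = 0.00354). In C28PLT only LHCA6 was called at 4 h, at -0.76 (adjusted p = 0.0427). At 6 h the same 3 genes were called in every condition. LHCA6 stood at -1.30 in C28P, -1.03 in C35P and -1.0 in C28PLT, LHCB4.2 at -1.17, -1.04 and -0.90, and PSAD2 at -0.82, -0.97 and -0.86. The other calls at 6 h were LHCB2.2 (-0.73), LHCB4.3 (-0.78) and PSBO2 (-0.60) in C28P and PSBY (-0.53) in C35P.

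By 12 h 21 genes had fallen in all 3 conditions, among them LHCB1.4, LHCB1.5, all 3 LHCB2 genes, LHCA1 to LHCA4, LHCB4.2, LHCB4.3 and LHCB6. Of the 12 PSA genes, 5 fell at 12 h in C28P, 7 in C35P and 10 in C28PLT. Of the 6 oxygen-evolving complex genes, 2, 4 and 3 fell. The early counts moved with the block and with single libraries. With the experiment as an additive block the count at 4 h in C28P was 1, where 4.87% of all genes fell. With a block for each condition and experiment it was 1 at 4 h and 19 at 6 h in C28P (7.1% and 13.9% of all genes). The same block gave 6 at 4 h and 11 at 6 h in C35P (8.07% and 12.8% of all genes) and 4 at 4 h in C28PLT (8.73%). In C28P the count at 4 h became 1 without the 0 h library of experiment 1 or the 4 h library of experiment 3 (5.66% and 3.1% of all genes). The count at 6 h became 12 without the 0 h library of experiment 1 (12.8% of all genes). It became 3 without the 6 h library of experiment 1 or the 0 h or 6 h library of experiment 3 (5.51%, 5.06% and 5.6%). At 12 h in C28P it became 11 without the 12 h library of experiment 1, 13 without that of experiment 2 and 11 without the 0 h library of experiment 3 (6.82%, 8.88% and 7.32% of all genes). In C35P the count at 4 h became 0 without the 0 h library of experiment 1 and 1 without the 4 h library of experiment 2 or the 0 h library of experiment 3 (2.91%, 2.46% and 3.02% of all genes). At 12 h in C35P it became 15 without the 0 h library of experiment 1, 16 without the 12 h library of experiment 1 and 14 without that of experiment 2 (9.19%, 9.5% and 9.04% of all genes). In C28PLT the LHCA6 call at 4 h was lost without the 4 h library of experiment 1 or 2 or the 0 h library of experiment 2 or 3. At 12 h in C28PLT the count became 14 without the 12 h library of experiment 1, 16 without that of experiment 2 and 19 without the 0 h library of experiment 3 (7.68%, 9.73% and 9.34% of all genes).

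Between 12 and 24 h the decline continued for part of the set, and this pair of times differs in time of day. In C28P 7 genes were lower at 24 h than at 12 h (16.7%, against 0.531% of all genes). These were LHCB3, LHCB6, LHCA3, LHCA4, PSAD2, PSBO2 and PSBP1. In C35P LHCA4 and PSAD2 were lower (4.76%, against 0.227% of all genes), and in C28PLT LHCA1, LHCA3, LHCA4 and PSAD2 (9.52%, against 0.314% of all genes). LHCA4 changed by -0.92, -0.75 and -0.93 in C28P, C35P and C28PLT, and PSAD2 by -1.08, -0.96 and -1.28. With a block for each condition and experiment, 18, 5 and 7 genes were lower, against 2.23%, 1.15% and 1.27% of all genes. The counts also depend on single libraries. In C28P the count became 0 without the 24 h library of experiment 2 and 2 without the 12 h library of experiment 3 (0.382% and 0.21% of all genes). It became 3 without the 24 h library of experiment 1 or the 12 h library of experiment 2 (0.115% and 0.148%). In C35P it became 1 without the 12 h library of experiment 2 and 0 without any other of the 6 libraries compared. In C28PLT it became 2 without the 24 h library of experiment 1 or 2 and 1 without the 12 h library of experiment 3 (0.062%, 0.234% and 0.105% of all genes).

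**Figure D2:**
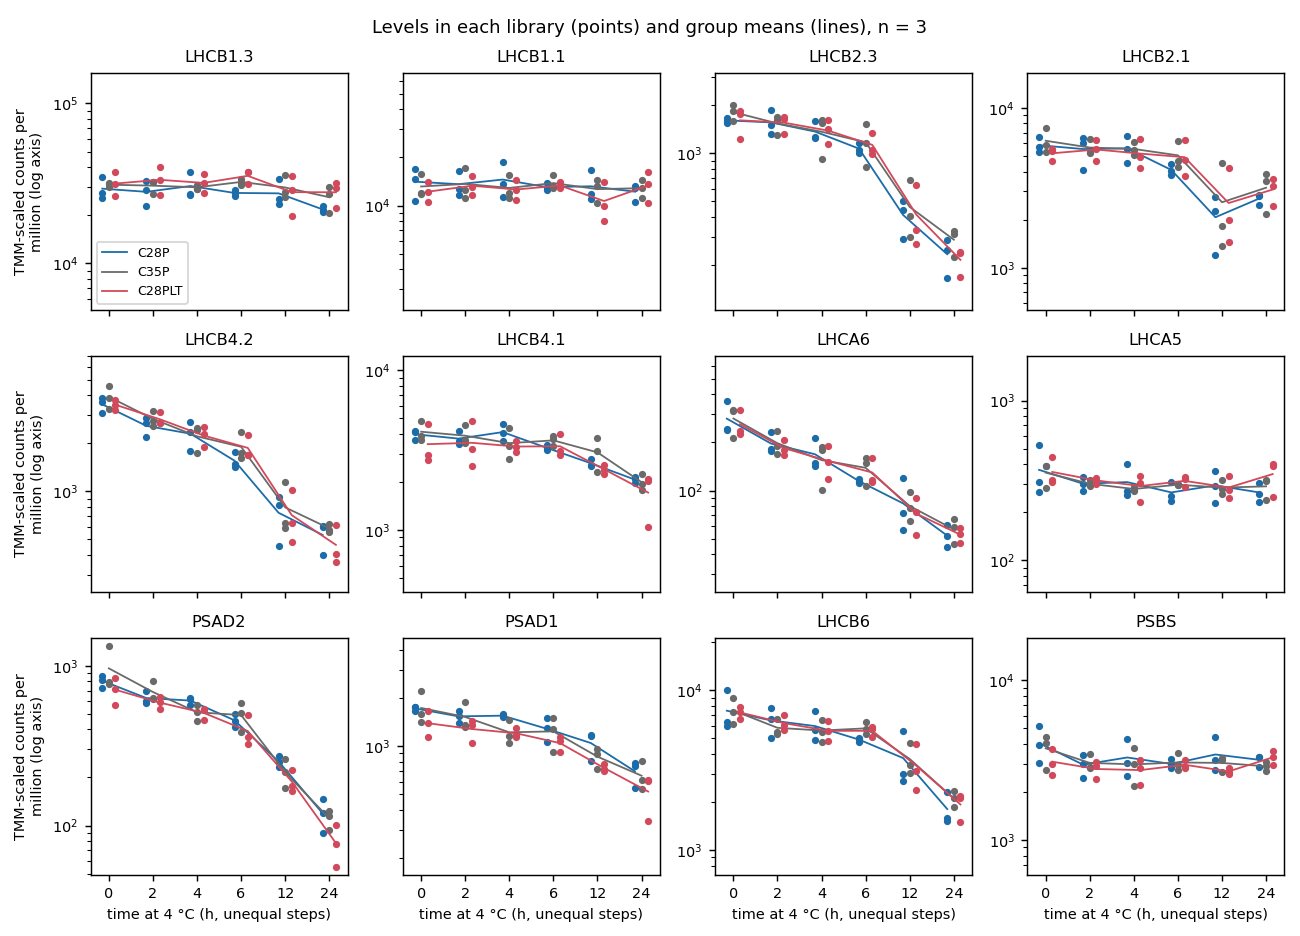
Level of selected genes in each library (points, CPM on a log axis) and group means (lines, n = 3) over 24 h at 4 °C in the 3 conditions. PSAD2 and LHCB4.2 lie at 24 h far below their 0 h levels in every library, with fold changes of 6.76 to 9.12 and 6.57 to 7.53, while PSBS and LHCB1.3 overlap between 0 h and 24 h in at least 1 condition.

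Because most of the genes moved together, they were also compared in the 250 bases before their annotated starts, taken from RefSeq's TAIR10.1 table, in which all 42 genes were matched. Shown here are LHCB2.3 and LHCA4, which fell steeply and hold a G-box, beside LHCB2.1, the copy of LHCB2.3 that fell least, and LHCB1.1, which was not called. These examples were picked by both change and motif, so their contrast cannot link a motif to the fall. PSAD2, LHCB4.2 and LHCA6 also fell steeply and hold no G-box. LHCB4.1 and PSAE2 hold a G-box and fell less than their copies LHCB4.2 and PSAE1, which hold none. PSBQ2 and PSBQA both hold the G-box, and PSBQ2 fell less. The sequences shown are written 5′ to 3′ in the direction of the gene, with motif matches in capitals. LHCB2.3 is at chr3:10255656-10255905 (plus strand), with the G-box CACGTG in capitals. LHCA4 is at chr3:17495034-17495283 (minus strand), with the G-box and, upstream of it, the reverse complement of the CCA1-binding site AAAAATCT. LHCB2.1 is at chr2:1824481-1824730 (minus strand), with the I-box GATAAG. LHCB1.1 is at chr1:10475970-10476219 (minus strand), with the CCA1-binding site.
LHCB2.3: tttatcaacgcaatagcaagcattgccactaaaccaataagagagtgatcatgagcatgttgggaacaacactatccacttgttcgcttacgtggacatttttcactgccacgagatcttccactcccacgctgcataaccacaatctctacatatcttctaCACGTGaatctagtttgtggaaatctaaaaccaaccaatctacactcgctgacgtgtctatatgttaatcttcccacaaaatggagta
LHCA4: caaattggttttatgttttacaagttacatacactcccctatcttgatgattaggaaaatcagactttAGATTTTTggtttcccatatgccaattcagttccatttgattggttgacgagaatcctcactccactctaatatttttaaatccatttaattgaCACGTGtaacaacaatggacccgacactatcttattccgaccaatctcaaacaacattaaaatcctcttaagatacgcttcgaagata
LHCB2.1: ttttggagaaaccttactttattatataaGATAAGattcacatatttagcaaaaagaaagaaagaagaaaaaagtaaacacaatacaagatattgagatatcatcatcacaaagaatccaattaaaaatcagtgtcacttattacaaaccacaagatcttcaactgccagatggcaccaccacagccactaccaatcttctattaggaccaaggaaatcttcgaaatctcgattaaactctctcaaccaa
LHCB1.1: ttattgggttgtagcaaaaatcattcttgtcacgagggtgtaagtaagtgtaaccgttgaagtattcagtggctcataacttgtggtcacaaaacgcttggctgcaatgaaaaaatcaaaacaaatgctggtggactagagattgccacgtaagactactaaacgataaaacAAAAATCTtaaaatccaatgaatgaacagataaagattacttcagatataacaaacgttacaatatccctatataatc

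Each motif was searched on both strands. The G-box CACGTG, bound by bZIP and PIF factors, was found in 8 of the 42 windows (19.0%), those of LHCB2.3, LHCB4.1, LHCB6, LHCA4, PSAE2, PSAH2, PSBQA and PSBQ2, and in 6.49% of all 27443 windows. It lay 88 bases before the start in both LHCB2.3 and LHCA4. The I-box GATAAG was found in 9 windows (21.4%, against 12.3% of all), the CCA1-binding site AAAAATCT in 5 (11.9%, against 6.69%), the evening element AAATATCT in 1, that of LHCA5 (2.38%, against 4.79%), and the C-repeat, as GCCGAC or ACCGAC, in 2, those of LHCB4.1 and LHCA6 (4.76%, against 7.09%). The median of the mean 24 h change was -1.59 for the 8 genes with a G-box and -1.16 for the 34 without. The 8 ranged from -2.78 (LHCB2.3) to -0.786 (PSBQ2), so that the groups overlap widely. Windows of 18 genes touch another annotated gene. These matches are descriptions of letters and not of bound sites.

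The LHCB1 genes encode the most abundant antenna protein, and their copies behaved unequally. LHCB1.4 (AT2G34430) and LHCB1.5 (AT2G34420) fell in all 3 conditions, LHCB1.2 (AT1G29910) fell in the first cold of both ages, and LHCB1.1 (AT1G29920) and LHCB1.3 (AT1G29930) were not called at any time. LHCB1.3 had the highest level of the 42 genes per length at 0 h, at a mean of 24900 CPM per kilobase of exon. It stood at 27630, 25480 and 34790 CPM in experiments 1 to 3 at 0 h and at 20910, 21470 and 22800 CPM at 24 h in C28P. In C35P it stood at 31720, 31550 and 29840 CPM at 0 h and at 20730, 29880 and 27070 CPM at 24 h. In C28PLT it stood at 26280, 37030 and 31320 CPM at 0 h and at 31650, 22250 and 29530 CPM at 24 h. The 24 h libraries were all lower in C28P, whereas the groups overlapped in C35P and C28PLT. The log2 change of LHCB1.3 was -0.43 (SE 0.203, adjusted p = 0.106) in C28P, -0.26 (SE 0.203, adjusted p = 0.353) in C35P and -0.18 (SE 0.203, adjusted p = 0.558) in C28PLT.

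LHCB1.4 had the most negative mean change of the LHCB1 copies over the 3 conditions, although LHCB1.5 (-1.66) changed more than LHCB1.4 in C28P. LHCB1.4 stood at 2484, 1968 and 2101 CPM at 0 h and 859.6, 506 and 966 CPM at 24 h in C28P. In C35P the values were 2335, 2856 and 2425 CPM at 0 h and 750.1, 1069 and 869.5 CPM at 24 h. In C28PLT they were 1558, 3377 and 2820 CPM at 0 h and 770.4, 504 and 749 CPM at 24 h. The groups did not overlap in any condition, and the log2 change was -1.49 (SE 0.337, adjusted p = 0.00084) in C28P, -1.50 (SE 0.337, adjusted p = 0.000766) in C35P and -1.94 (SE 0.342, adjusted p = 3.25e-05) in C28PLT. LHCB1.1, the copy with the least change, stood at 14670, 10670 and 17000 CPM at 0 h and 13310, 10490 and 12840 CPM at 24 h in C28P. In C35P the levels were 15750, 11800 and 11920 CPM and then 11110, 14530 and 12900 CPM, and in C28PLT 10600, 13940 and 12080 CPM and then 16140, 10320 and 13600 CPM. Its 0 h and 24 h libraries overlapped in every condition, and its log2 change of -0.21, -0.03 and 0.13 became 0.146 in C28P and 0.216 in C35P when libraries were scaled by their total counts. Without the 0 h or the 24 h library of experiment 1 it became 0.113 or 0.0605 in C35P, and -0.0292 without that of 24 h in C28PLT.

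LHCB1.1, LHCB1.2 and LHCB1.3 lie next to each other on chromosome 1, between positions 10472280 and 10479114 of TAIR10.1, and LHCB1.4 and LHCB1.5 next to each other on chromosome 2, between 14522524 and 14525918. Their coding sequences are close: 95.7% to 96.4% identical among LHCB1.1, LHCB1.2 and LHCB1.3, with identical runs of up to 119 bases, and 91.6% identical between LHCB1.4 and LHCB1.5, with a run of 122 bases. How reads that fit more than 1 copy were counted is not given in the sources used here, so the split among these copies is uncertain. With the 5 copies summed as a single gene, the log2 change at 24 h was -0.658 in C28P (SE 0.21, edgeR adjusted p = 0.0157), -0.478 in C35P (adjusted p = 0.0817) and -0.383 in C28PLT (adjusted p = 0.181), so that the sum was called in C28P only. The call of LHCB1.2 in C28P was lost with an offset for length and GC (edgeR adjusted p = 0.0766). The summed LHCB1 share of all counts went from 6.27% ± 0.386 to 5.05% ± 0.138 in C28P (SD, n = 3), from 6.65% ± 0.533 to 5.64% ± 0.567 in C35P and from 6.76% ± 1.16 to 5.13% ± 0.344 in C28PLT.

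The LHCB2 genes, whose protein is phosphorylated in state transitions, fell in all 3 cases in C28P and C35P and in 2 of 3 in C28PLT. LHCB2.3 (AT3G27690) stood at 1602, 1559 and 1662 CPM at 0 h and 249.5, 166 and 285 CPM at 24 h in C28P. In C35P it stood at 1999, 1598 and 1831 CPM and then 223, 313 and 327 CPM. In C28PLT it stood at 1225, 1759 and 1842 CPM and then 239, 168 and 240.1 CPM. Every 24 h library lay far below every 0 h library, and the log2 change was -2.78 (SE 0.3, adjusted p = 1.09e-08) in C28P, -2.65 (SE 0.298, adjusted p = 1.75e-08) in C35P and -2.90 (SE 0.301, adjusted p = 2.53e-09) in C28PLT. LHCB2.1 (AT2G05100), the copy with the highest level per length, had its lowest mean at 12 h. In C28P it stood at 5302, 5676 and 6567 CPM at 0 h, 1193, 2255 and 2763 CPM at 12 h and 2477, 2827 and 2841 CPM at 24 h. In C35P it stood at 7535, 5297 and 5866 CPM, 1367, 1818 and 4522 CPM and 2161, 3494 and 3848 CPM at these times. In C28PLT it stood at 4679, 5550 and 5378 CPM, 1459, 1982 and 4180 CPM and 3601, 2424 and 3235 CPM. Both later groups lay below 0 h in all 3 conditions, the 12 h libraries of experiment 3 were the highest of their groups, and the 12 h and 24 h libraries overlapped. Its log2 change at 24 h was -1.11 (SE 0.328, adjusted p = 0.00923) in C28P, -0.98 (SE 0.327, adjusted p = 0.0214) in C35P and -0.75 (SE 0.325, adjusted p = 0.0834) in C28PLT. LHCB2.2 (AT2G05070) changed by -1.96, -2.10 and -2.30 in the 3 conditions. LHCB2.1 and LHCB2.2 share an identical coding run of 137 bases and their split is uncertain. Their sum fell in every condition, with log2 changes of -1.34, -1.27 and -1.12 (edgeR adjusted p = 0.000894, 0.00149 and 0.00481). LHCB3 (AT5G54270), which joins LHCB1 and LHCB2 in trimers, went from 8760 ± 544 to 3673 ± 363 CPM in C28P (SD, n = 3), from 9459 ± 1880 to 3489 ± 212 CPM in C35P and from 8272 ± 1380 to 3395 ± 571 CPM in C28PLT. Its log2 change was -1.25 (SE 0.197, adjusted p = 7.06e-06) in C28P, -1.44 (SE 0.198, adjusted p = 6.19e-07) in C35P and -1.28 (SE 0.197, adjusted p = 3.94e-06) in C28PLT.

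All 5 genes of the minor antenna fell at 24 h in every condition. LHCB4.2 (AT3G08940) stood at 3080, 3608 and 3825 CPM in experiments 1 to 3 at 0 h and at 597, 401 and 603 CPM at 24 h in C28P. The C35P libraries held 4561, 3292 and 3858 CPM at 0 h and 558, 625 and 576 CPM at 24 h. The C28PLT libraries held 3230, 3752 and 3460 CPM at 0 h and 617, 408 and 362 CPM at 24 h. No 24 h library came near a 0 h library, and the log2 change was -2.72 (SE 0.275, adjusted p = 3.14e-09) in C28P, -2.73 (SE 0.275, adjusted p = 1.75e-09) in C35P and -2.91 (SE 0.277, adjusted p = 3.95e-10) in C28PLT. Its copy LHCB4.1 (AT5G01530) had the smallest change of the group. LHCB4.1 stood at 4150, 3687 and 4128 CPM and then 2091, 1973 and 2152 CPM in C28P, and at 4801, 3911 and 3685 CPM and then 2251, 1951 and 1789 CPM in C35P. Levels in C28PLT were 2975, 4645 and 2741 CPM and then 2081, 2026 and 1050 CPM. The groups did not overlap, and the log2 change was -0.94 (SE 0.224, adjusted p = 0.00139) in C28P, -1.05 (SE 0.225, adjusted p = 0.000446) in C35P and -1.01 (SE 0.225, adjusted p = 0.000703) in C28PLT. With scaling by total counts LHCB4.1 was not called in C28P (-0.612, edgeR adjusted p = 0.0596).

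LHCB5 (AT4G10340), known as CP26, had the highest level of the minor antenna per length. It stood at 8319, 8902 and 11550 CPM and then 3894, 3763 and 4027 CPM in C28P, at 9950, 8334 and 10920 CPM and then 3522, 4799 and 5411 CPM in C35P, and at 8979, 8460 and 12110 CPM and then 4505, 3311 and 6419 CPM in C28PLT. Its 24 h libraries were below its 0 h libraries in all 3 conditions, with a log2 change of -1.30, -1.09 and -1.05. LHCB6 (AT1G15820), known as CP24, stood at 6015, 6317 and 10050 CPM and then 1597, 1517 and 2311 CPM in C28P. The libraries held 8984, 6174 and 7283 CPM and then 1860, 2341 and 2114 CPM in C35P, and 6640, 7341 and 7835 CPM and then 2182, 1490 and 2121 CPM in C28PLT. Its groups did not overlap either, and its log2 change was -2.04 (SE 0.257, adjusted p = 1.79e-07) in C28P, -1.83 (SE 0.255, adjusted p = 7.87e-07) in C35P and -1.91 (SE 0.255, adjusted p = 3.39e-07) in C28PLT. LHCB4.3 (AT2G40100), at a mean of 202 CPM per kilobase the lowest of the 42 genes per length, changed by -1.45, -1.39 and -1.36.

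The 4 genes of the photosystem I antenna fell in every condition at 12 h and at 24 h, by similar amounts for LHCA1 (AT3G54890), LHCA2 (AT3G61470) and LHCA3 (AT1G61520) and by more for LHCA4 (AT3G47470). LHCA4, whose protein pairs with LHCA1, stood at 6484, 7516 and 8435 CPM at 0 h and 2463, 1910 and 2512 CPM at 24 h in C28P. Levels in C35P were 8750, 6702 and 8609 CPM and then 2279, 2538 and 2759 CPM. Its C28PLT values were 6741, 7409 and 8887 CPM before and 2329, 1776 and 2595 CPM after 24 h. The groups were far apart, and the log2 change was -1.70 (SE 0.189, adjusted p = 1.98e-08) in C28P, -1.67 (SE 0.189, adjusted p = 1.94e-08) in C35P and -1.78 (SE 0.189, adjusted p = 4.21e-09) in C28PLT. LHCA2 went from 4033 ± 473 to 1828 ± 202 CPM in C28P (SD, n = 3), from 4055 ± 239 to 1937 ± 64.0 CPM in C35P and from 3701 ± 711 to 1684 ± 94.4 CPM in C28PLT. Its log2 change was -1.14 (SE 0.17, adjusted p = 3.11e-06) in C28P, -1.07 (SE 0.17, adjusted p = 7.7e-06) in C35P and -1.14 (SE 0.17, adjusted p = 2.69e-06) in C28PLT. LHCA1 changed by -1.23, -1.11 and -1.17 and LHCA3 by -1.24, -1.23 and -1.29.

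The linkers LHCA5 (AT1G45474) and LHCA6 (AT1G19150), which attach photosystem I to the NDH complex, went different ways. LHCA6 stood at 239.7, 242 and 364 CPM at 0 h and 51.8, 44.4 and 60.4 CPM at 24 h in C28P. Levels were 313, 214 and 319 CPM and then 46.0, 58.7 and 66.7 CPM in C35P, and 225, 235 and 319.9 CPM and then 53.4, 46.6 and 58.6 CPM in C28PLT. Every 24 h library was far below every 0 h library, and the log2 change was -2.43 (SE 0.271, adjusted p = 2.12e-08) in C28P, -2.30 (SE 0.269, adjusted p = 3.75e-08) in C35P and -2.30 (SE 0.269, adjusted p = 3.13e-08) in C28PLT. LHCA5 stood at 268, 308 and 531 CPM and then 234, 261 and 304 CPM in C28P. In C35P the levels were 392, 284 and 388 CPM and then 239.6, 315 and 319 CPM, and in C28PLT 319, 309 and 447 CPM and then 391, 251 and 400.5 CPM. Its 0 h and 24 h libraries overlapped in every condition, and its log2 change of -0.47 (SE 0.217, adjusted p = 0.0983) in C28P, -0.28 (SE 0.216, adjusted p = 0.342) in C35P and -0.04 (SE 0.216, adjusted p = 0.907) in C28PLT was not called. In C28P LHCA5 was called without the 0 h library of experiment 1, the library that stands apart, at -0.653, and with a block for each condition and experiment. The change in C28P was -0.139 without the 0 h library of experiment 3. In C28PLT the change of LHCA5 was 0.143 without the 24 h library of experiment 2 and 0.127 without the 0 h library of experiment 3.

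All 12 PSA subunits of photosystem I fell in C28P and C35P, and 10 of 12 fell in C28PLT. PSAD2 (AT1G03130) stood at 818, 868 and 729.9 CPM at 0 h and 147, 89.7 and 120.4 CPM at 24 h in C28P. Its C35P values were 1335, 767 and 788 CPM before and 124, 114 and 94.3 CPM after 24 h. In C28PLT it stood at 712, 843 and 568 CPM and then 101, 77.1 and 55.2 CPM. The 24 h libraries were the lowest of the time course by a wide gap to 0 h, and the log2 change was -2.76 (SE 0.233, adjusted p = 5.13e-11) in C28P, -3.12 (SE 0.236, adjusted p = 4.41e-12) in C35P and -3.19 (SE 0.237, adjusted p = 8.61e-13) in C28PLT, a fall of 6.76-fold, 8.69-fold and 9.12-fold. Its copy PSAD1 (AT4G02770) stood at 1765, 1661 and 1745 CPM and then 756, 547 and 782 CPM in C28P. The libraries held 2213, 1406 and 1579 CPM and then 804, 618 and 537 CPM in C35P, and 1388, 1651 and 1135 CPM and then 606, 616 and 338 CPM in C28PLT. Its groups did not overlap, and its log2 change was -1.31 (SE 0.225, adjusted p = 2.65e-05) in C28P, -1.41 (SE 0.225, adjusted p = 7.96e-06) in C35P and -1.42 (SE 0.225, adjusted p = 6.77e-06) in C28PLT.

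PSAH, the subunit at which antenna of photosystem II docks during state transitions, also has a pair of genes. PSAH2 (AT1G52230) stood at 2122, 2187 and 3023 CPM at 0 h and 601, 521 and 635 CPM at 24 h in C28P. Levels were 3311, 1791 and 2658 CPM and then 512, 693 and 675 CPM in C35P, and 2832, 2047 and 3811 CPM and then 741, 426 and 989.7 CPM in C28PLT. The groups did not overlap, and the log2 change was -2.06 (SE 0.303, adjusted p = 2.51e-06) in C28P, -2.04 (SE 0.303, adjusted p = 2.28e-06) in C35P and -2.01 (SE 0.303, adjusted p = 2.95e-06) in C28PLT. PSAH1 (AT3G16140) stood at 2163, 2010 and 2849 CPM and then 874, 1029 and 966 CPM in C28P, and at 3175, 1686 and 2231 CPM and then 707, 1238 and 1283 CPM in C35P. The C28PLT libraries held 2202, 1765 and 3432 CPM at 0 h and 1531, 794 and 2188 CPM at 24 h. PSAH1 overlapped between 0 h and 24 h in C28PLT, where it was not called, and its log2 change was -1.29 (SE 0.328, adjusted p = 0.00267) in C28P, -1.14 (SE 0.327, adjusted p = 0.00755) in C35P and -0.71 (SE 0.324, adjusted p = 0.101) in C28PLT.

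Among the other PSA genes, PSAL (AT4G12800), needed with PSAH for that docking, had the highest level per length. PSAL went from 7803 ± 1800 to 2819 ± 228 CPM in C28P (SD, n = 3), from 7842 ± 2420 to 3320 ± 991 CPM in C35P and from 7887 ± 2160 to 4422 ± 1770 CPM in C28PLT. Its log2 change was -1.47 (SE 0.299, adjusted p = 0.000258) in C28P, -1.24 (SE 0.297, adjusted p = 0.00152) in C35P and -0.83 (SE 0.295, adjusted p = 0.0321) in C28PLT. PSAF (AT1G31330), the plastocyanin-docking subunit and the PSA gene with the smallest mean change, went from 1877 ± 241 to 1126 ± 133 CPM, from 1960 ± 206 to 1136 ± 222 CPM and from 1783 ± 384 to 848 ± 173 CPM in the same order. Its log2 change was -0.74 (SE 0.191, adjusted p = 0.00317) in C28P, -0.79 (SE 0.191, adjusted p = 0.0017) in C35P and -1.07 (SE 0.192, adjusted p = 4.11e-05) in C28PLT. With scaling by total counts PSAF was not called in C28P (-0.422, edgeR adjusted p = 0.201) or C35P (-0.531). The stromal PSAE genes changed by -1.53, -1.28 and -1.15 for PSAE1 (AT4G28750) and by -1.20, -0.93 and -0.62 for PSAE2 (AT2G20260), of which the last value of PSAE2 was not called (adjusted p = 0.137, edgeR). PSAG (AT1G55670), PSAK (AT1G30380), PSAN (AT5G64040) and PSAO (AT1G08380) fell in all 3 conditions, with log2 changes from -0.68 (PSAG in C28PLT) to -1.40 (PSAK in C35P).

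Of the 6 oxygen-evolving complex genes, 6 fell in C28P and 5 in each of C35P and C28PLT. PSBR (AT1G79040), a small luminal subunit with the second highest level per length of the set (22030 CPM per kilobase), was the exception in both. PSBR stood at 11290, 13720 and 26200 CPM at 0 h and 5101, 6747 and 6210 CPM at 24 h in C28P. In C35P it stood at 21860, 9716 and 14670 CPM and then 3778, 9226 and 9285 CPM. Levels in C28PLT were 21960, 11360 and 24690 CPM and then 12110, 4666 and 18320 CPM. The 0 h libraries differed widely among experiments, and the groups overlapped in C28PLT. The log2 change of PSBR was -1.50 (SE 0.424, adjusted p = 0.00637) in C28P, -1.05 (SE 0.42, adjusted p = 0.0542) in C35P and -0.73 (SE 0.417, adjusted p = 0.206) in C28PLT. It was among the most variable genes of the set, with the largest SE.

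PSBQ, an extrinsic protein of the oxygen-evolving complex, has 2 genes in the set. PSBQA (AT4G21280) stood at 4224, 3812 and 6418 CPM at 0 h and 1544, 1417 and 1762 CPM at 24 h in C28P. In C35P the levels were 6403, 3248 and 4783 CPM and then 1528, 1707 and 1880 CPM, and in C28PLT 4213, 3601 and 5687 CPM and then 2025, 1159 and 2394 CPM. The groups did not overlap, and the log2 change was -1.61 (SE 0.281, adjusted p = 3.28e-05) in C28P, -1.50 (SE 0.28, adjusted p = 7.98e-05) in C35P and -1.28 (SE 0.278, adjusted p = 0.000548) in C28PLT. PSBQ2 (AT4G05180) stood at 1331, 1826 and 1860 CPM and then 845, 1050 and 1067 CPM in C28P. The libraries held 2175, 1617 and 2148 CPM and then 957, 1087 and 1260 CPM in C35P, and 1726, 1816 and 2296 CPM and then 1118, 921 and 1428 CPM in C28PLT. Its groups did not overlap, and its log2 change was -0.76 (SE 0.199, adjusted p = 0.00349) in C28P, -0.85 (SE 0.199, adjusted p = 0.00127) in C35P and -0.75 (SE 0.199, adjusted p = 0.00404) in C28PLT. The manganese-stabilising protein genes PSBO1 (AT5G66570) and PSBO2 (AT3G50820) changed by -0.81, -0.98 and -0.69 and by -1.37, -1.24 and -1.03, and PSBP1 (AT1G06680) by -1.02, -1.0 and -0.84, and all of these were called. With scaling by total counts PSBO1 was not called in C28P (-0.465, edgeR adjusted p = 0.0967).

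PSBS (AT1G44575), which senses lumen acidity and switches on thermal quenching, was not called at any time in any condition. It stood at 3909, 3055 and 5160 CPM at 0 h and 3327, 2877 and 3322 CPM at 24 h in C28P. The C35P libraries held 4423, 2759 and 4063 CPM at 0 h and 2708, 3063 and 2905 CPM at 24 h. Its C28PLT values were 2546, 2997 and 3731 CPM before and 3624, 2941 and 3308 CPM after 24 h. The groups overlapped in every condition. Its log2 change was -0.35 (SE 0.216, adjusted p = 0.231) in C28P, -0.37 (SE 0.216, adjusted p = 0.196) in C35P and 0.09 (SE 0.216, adjusted p = 0.802) in C28PLT, and in C28P it became 0.0156 with scaling by total counts and in C28PLT -0.0323 without the 0 h library of experiment 1. The small membrane subunits of photosystem II fell in all 3 cases in C28P and C35P, by -1.33 and -1.13 for PSBW (AT2G30570), -1.44 and -1.28 for PSBX (AT2G06520) and -1.04 and -1.07 for PSBY (AT1G67740). In C28PLT PSBX (-1.0) and PSBY (-0.77) fell and PSBW (-0.73, edgeR adjusted p = 0.0802) was not called.

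Together the 42 genes took a large share of each library. Their counts made up 19.9% ± 0.0400 of all counts at 0 h and 12.0% ± 0.439 at 24 h in C28P (SD, n = 3). In C35P the share was 21.1% ± 0.231 at 0 h and 13.0% ± 1.29 at 24 h, and in C28PLT 21.2% ± 1.53 and 12.1% ± 0.8. The 0 h and 24 h libraries did not overlap in any condition. The minor antenna went from 2.21% to 0.958% of all counts in C28P and LHCA1 to LHCA4 from 1.73% to 0.840%, whereas PSBS stood at 0.357% and 0.361%. A share also depends on the counts of all other genes. In CPM the C28P libraries of PSBS stood at 3909, 3055 and 5160 at 0 h and at 3327, 2877 and 3322 at 24 h. On the log2 scale the summed share changed by -0.729 (SD 0.0522 over experiments, n = 3) in C28P, -0.704 (SD 0.161) in C35P and -0.815 (SD 0.195) in C28PLT. Summed in CPM, the change was -1.07, -0.951 and -0.830. The counts of calls depend on the scaling. Scaled by total counts alone, the median change of all genes at 24 h became 0.363, 0.285 and 0.0513. All genes then split into 1934 fallen and 4274 risen in C28P in place of 3165 and 2873, 1955 and 3795 in C35P in place of 2903 and 3055, and 2149 and 2842 in C28PLT in place of 2345 and 3019, and the set had 35, 36 and 37 genes fallen, with LHCB1.2, LHCB2.1, PSAE2, PSAH1 and PSBW called in C28PLT besides those called there before.

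**Figure D3:**
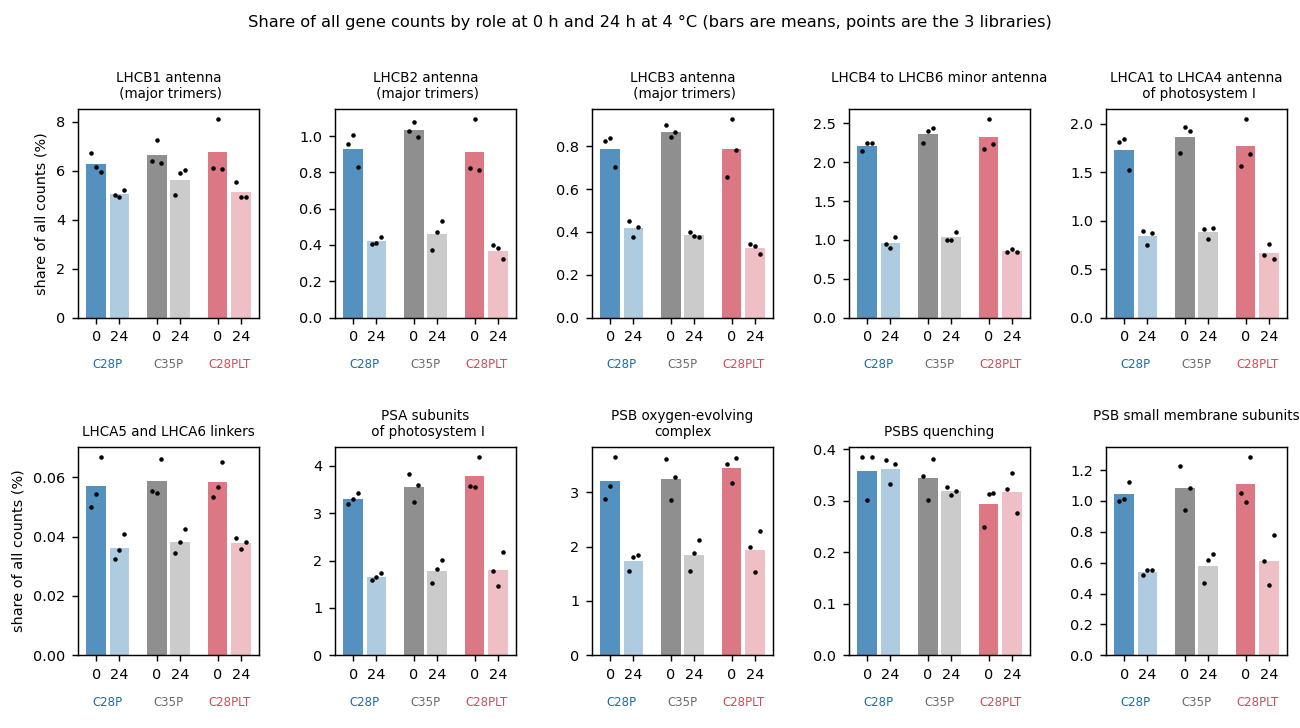
Share of all gene counts (%, from 0) taken by the genes of each role at 0 h and 24 h at 4 °C in the 3 conditions, with bars for means and points for the 3 libraries. The minor antenna dropped from 2.21% to 0.958% in C28P, LHCB1 from 6.27% to 5.05%, and the bars of PSBS (0.357% and 0.361%) are nearly level. A share also depends on the counts of all other genes.

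In several of the compared pairs of gene copies, though not in all, the balance of the copies shifted in every condition. PSAD2 made up 31.8% of the PSAD counts at 0 h and 14.6% at 24 h in C28P, 35.4% and 14.6% in C35P, and 33.7% and 13.1% in C28PLT. The log2 ratio of PSAD2 to PSAD1 changed by -1.45 (SD 0.211, n = 3), -1.68 (SD 0.252) and -1.76 (SD 0.234). LHCB4.2 went from 46.7% to 20.3% of the LHCB4.1 and LHCB4.2 counts in C28P, from 48.5% to 22.8% in C35P and from 50.8% to 21.8% in C28PLT. PSAH2 went from 51.0% to 38.0% of PSAH, from 52.3% to 37.5% and from 54.2% to 32.9%. LHCB2.3 went from 21.6% to 7.94% of the LHCB2.1 and LHCB2.3 counts, from 22.6% to 8.48% and from 23.4% to 6.53%. For these 4 pairs the ratios at 0 h and 24 h did not overlap in any condition. How often the ratios of other gene pairs separate in this way was not tested.

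The balance moved the other way in 2 pairs, in favour of the copy with fewer counts. PSBQ2 went from 26.3% to 38.5% of the PSBQ counts in C28P, from 29.9% to 39.2% in C35P and from 30.4% to 39.1% in C28PLT, a change of the log2 ratio by 0.829, 0.605 and 0.55. PSAE2 went from 18.6% to 22.3% of the PSAE counts, from 19.4% to 23.1% and from 18.5% to 24.7%. Neither ratio overlapped between 0 h and 24 h in any condition. The ratio of PSBO2 to PSBO1 changed by -0.572, -0.263 and -0.344 and overlapped between times in C28PLT, and that of LHCB4.3 to LHCB4.1 by -0.47, -0.308 and -0.327 and overlapped in C35P and C28PLT. A ratio within a library does not depend on the scaling of libraries, but it shows only unequal change. The coding sequences within these pairs were 77.7% to 87.0% identical, apart from LHCB2.1 with LHCB2.3 (66.4%) and LHCB4.1 with LHCB4.3 (67.7%), and their longest identical runs were 21 to 38 bases.

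**Figure D4:**
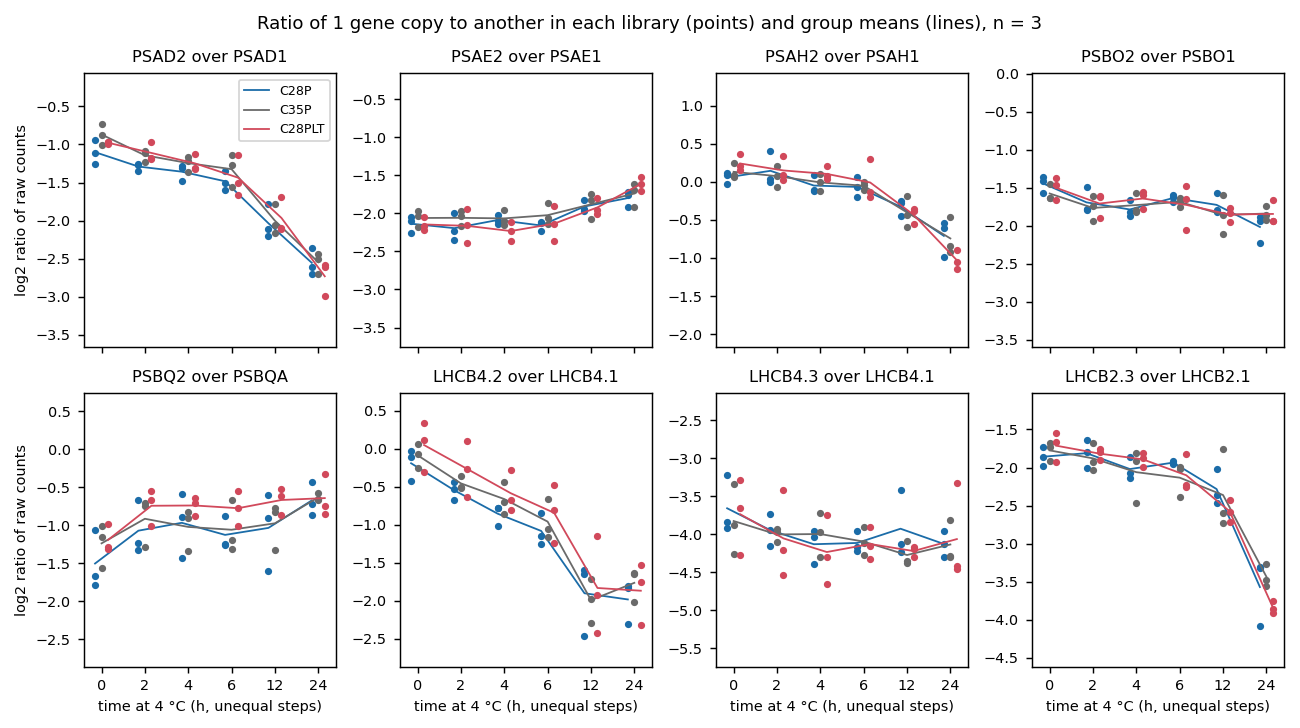
Log2 ratio of the raw counts of a gene copy to another in each library (points) with group means (lines, n = 3) over time at 4 °C in the 3 conditions. PSAD2 over PSAD1 and LHCB4.2 over LHCB4.1 drop by 1.45 to 1.92 log2 units from 0 h to 24 h, whereas PSBQ2 over PSBQA rises by 0.55 to 0.829.

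The comparison of C28PLT with C35P asks whether plants that had met cold before differ from plants of the developmental control on first cold. After priming and lag the C28PLT plants were also older in days than the C35P plants. Prior cold and this difference in age cannot be told apart. Before the cold, no gene of the set was called between conditions in any setting. Among all genes, 0.0241% were called between C35P and C28P at 0 h (5 genes), 0.125% between C28PLT and C28P (26 genes) and 0.00483% between C28PLT and C35P (1 gene). These shares of all genes rest on single libraries. Without the 0 h library of experiment 1 of C28P, the one that stands apart, the first and the second were 0%, and without that of experiment 2 or 3 of C28P they were 0.348% or 0.262% and 0.277% or 0.563%. The first was 0% without any 1 of the C35P libraries and the second 0% without the C28PLT library of experiment 1 or 3. The third ranged from 0% to 0.443% over the libraries left out, the highest without the C35P library of experiment 3. No gene of the set was called in any of these fits. With all libraries, 455, 1510 and 752 of all 20720 genes had an unadjusted edgeR p under 0.05, and 0, 1 and 1 genes of the set. These were PSBO2 at -0.41 between C28PLT and C28P (SE 0.198, edgeR adjusted p = 0.655) and PSAD2 at -0.44 between C28PLT and C35P (SE 0.218, edgeR adjusted p = 1).

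During the second cold no gene of the set, and 0% of all genes, was called between C28PLT and C35P at 2, 4, 6, 12 or 24 h. At an unadjusted p under 0.05 edgeR gave 176, 184, 114, 206 and 669 of all genes at these times and 0, 0, 0, 0 and 2 of the set. The largest differences in the set at 24 h were PSBR at 0.65 (SE 0.417, edgeR adjusted p = 0.818) and PSAD2 at -0.51 (SE 0.219, adjusted p = 0.818). The difference between the responses themselves, each condition against its own 0 h, called 0% of all genes at every time for C28PLT against C35P, and 0% at 24 h for C28PLT against C28P and for C35P against C28P. DESeq2 and every other setting tried likewise called no gene of the set in the difference between C28PLT and C35P.

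For the 24 h responses of C28PLT and C35P the differences over the 42 genes ran from -0.436 (LHCB1.4, SE 0.467) to 0.464 (PSBS, SE 0.305), with a median of 0.113 and a median SE of 0.338. For C28PLT against C28P they ran from -0.447 (LHCB1.4) to 0.779 (PSBR, SE 0.588), with a median of 0.19. For C35P against C28P they ran from -0.363 (PSAD2) to 0.451 (PSBR), with a median of 0.0926. In none of the 3 did a gene of the set reach an unadjusted p under 0.05, whereas 623, 1461 and 417 of all genes did. With SEs of 0.218 to 0.588, differences of the size seen were not detectable, which does not show that the responses were alike. Across the 42 genes the 24 h changes ranked similarly, with a Spearman rho of 0.921 between C28P and C35P, 0.802 between C28P and C28PLT and 0.907 between C35P and C28PLT. These describe genes measured in the same libraries, which are not independent replicates. The changes showed little relation to the level at 0 h per kilobase (rho 0.138), exon length (rho 0.143) or GC content (rho 0.00981) of the same 42 genes. Over all genes tested, the deviation of a library from the gene means did relate to gene length, with a rho from -0.447 to 0.584 among libraries. With an offset for length and GC the 24 h medians of the set were -1.12 in C28P, -1.09 in C35P and -1.15 in C28PLT. The order of the conditions thus changed with the offset.

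**Figure D5:**
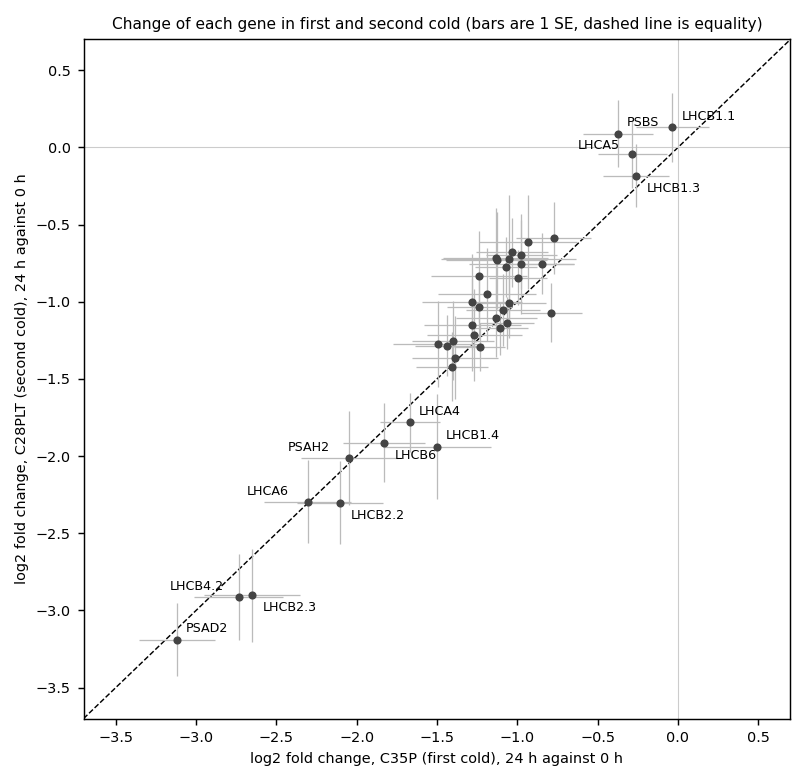
Log2 fold change at 24 h against 0 h of each of the 42 genes in C35P (first cold, horizontal axis) and C28PLT (second cold, vertical axis), with bars of 1 SE and a dashed line of equality. The genes lie along the line, from PSAD2 (-3.12 and -3.19) to LHCB1.1 (-0.03 and 0.13), and the differences from it, -0.436 to 0.464, were not called.

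Genes that work beside the set showed mixed changes at 24 h, read from lists chosen with earlier results of these data known. Among all genes tested, 15.3%, 14% and 11.3% fell, and 2873, 3055 and 3019 of 20720 rose, in C28P, C35P and C28PLT. Of 10 electron carriers and ATP synthase subunits, 7, 7 and 6 fell in C28P, C35P and C28PLT and none rose. PETE1, a plastocyanin that carries electrons to photosystem I, changed by -2.73, -2.55 and -2.61, and the ferredoxin FD1, which takes them from it, by -2.25, -2.18 and -1.78. Of 6 genes for antenna import and photosystem assembly, 2 fell in each condition, namely PSB27, an assembly factor of photosystem II (-1.78, -1.70 and -1.39), and CPSRP43, which carries antenna proteins to the thylakoid (-0.87, -0.87 and -1.27). Of 9 genes for state transitions, cyclic flow and quenching, 4 fell in each condition. STN8, a kinase of photosystem II core proteins, changed by -1.22, -1.02 and -1.30 and PGRL1A, of cyclic electron flow, by -1.18, -1.38 and -1.21. VDE, the violaxanthin de-epoxidase of the xanthophyll cycle, rose by 1.35 in C28P and 1.27 in C35P and stood at 0.76 in C28PLT (edgeR adjusted p = 0.107).

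The early light-induced proteins ELIP1 and ELIP2, relatives of the antenna proteins that bind chlorophyll under stress, went opposite to the set and were the only members of 8 LHC-like genes to rise in the edgeR test. ELIP1 rose by 5.10, 5.85 and 5.98 on the log2 scale and ELIP2 by 4.83, 5.87 and 5.96. OHP1, a small relative of the antenna proteins, fell in C35P (-1.06). Of 8 nuclear regulators of antenna genes, 4, 3 and 3 fell and 2 rose in each condition. PIF4, a phytochrome-interacting factor, changed by -3.95, -3.68 and -3.96, and CGA1, a GATA factor of chloroplast development, by 1.72, 2.07 and 2.03. Of 10 chlorophyll synthesis genes, 3, 4 and 4 fell. CHLM, a magnesium-protoporphyrin methyltransferase, changed by -1.50, -1.60 and -1.78, and PORB, a protochlorophyllide oxidoreductase, rose in C35P (2.24) and C28PLT (1.57) and stood at 1.11 in C28P (edgeR adjusted p = 0.109).

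Cell type markers gave mixed counts at 24 h. Of 8 leaf photosynthesis markers outside the set, 8, 7 and 7 fell, with medians of -1.41, -1.41 and -1.23. Of 7 epidermis and guard cell markers, 1 fell in each condition, a share close to that of all genes (15.3%, 14% and 11.3%), and MYB60 rose in C28P (1.2), with medians of 0.0279, 0.314 and -0.335. Of 5 phloem markers, SEOR1 fell in C28P (-1.09) and C28PLT (-1.61) and none was called in C35P. None of the 5 floral organ markers was called. The part of the markers' changes in the fall of the set was not tested.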

How the data were processed

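RNA sequencing of 54 libraries was analysed from the raw count table that the authors deposited, which holds whole-number read counts per gene. Per the submitters' processing notes, Trimmomatic, STAR 2.7.9a and DESeq2 were used with the TAIR10 genome. Which annotation release served, whether strand was used in counting and how multi-mapping reads were handled is not given in the sources used here. Per the labels' protocols the library kit keeps strand. Without a stated setting, reads of overlapping or antisense genes cannot be told apart. The total counts of 23408399 to 34452480 per library limit precision little for these genes, whose error is mostly the spread between libraries (common dispersion 0.1197).

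From these counts, genes were kept by edgeR's filterByExpr with a minimum count of 10 (20720 of 36632 genes, 56.6%), scaled by TMM (factors 0.7478 to 1.207) and tested with edgeR 4.0.16 in R 4.3.3 (limma 3.58.1), by the robust quasi-likelihood test with 1 coefficient per group, all 54 libraries and 36 residual degrees of freedom. Benjamini-Hochberg adjustment covered all genes tested in each of 33 contrasts, and genes were called at 0.05. The procedure was also run on counts simulated from its own fitted spread. That simulation held no effect of experiment or gene length, so it cannot show how the procedure handles these. No pair of libraries within a group was alike within sampling noise (lowest chi-square per degree of freedom 22.09 over 54 pairs). All 36632 gene identifiers matched RefSeq's TAIR10.1 table, from which names, lengths and sequences come. A protein table was not used here, so identities are of coding sequences.

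The members, lists and tests were chosen with earlier results of these data known. Full values are given in each role for the gene with the highest level, the most negative and the most positive mean change at 24 h, and each pair of copies; other lists are given as counts with the genes of largest change. The test with 1 coefficient per group, which gave the calls, SEs and adjusted p-values, held no block for experiment. Same-numbered libraries come from the same independent experiment per the labels, and this pairing entered the fits with a block and the changes within experiments. The correlation of their deviations from the group means at 0 h and 24 h was 0.209, 0.27 and 0.242 in C28P, 0.068, -0.21 and 0.0788 in C35P and -0.157, 0.311 and 0.379 in C28PLT. The alternatives were a block for experiment, a block for each condition and experiment, DESeq2's size factors, scaling by total counts, DESeq2 1.42.0, no filter, only the groups compared, an offset for length and GC with and without the block, close copies summed, and leaving out each experiment or library.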

Additional observations from a re-analysis of the deposited data

How the results depend on the processing

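At 24 h against 0 h the fallen genes numbered 38 in C28P, 37 in C35P and 32 in C28PLT, and no setting gave a risen gene of the set in any contrast against 0 h. Differences between conditions and between responses called no gene of the set in any setting. With the replicate block the 4 h count in C28P was 1 in place of 0, and the block moved no other count of the set by over 1.5 times. With a block per condition and experiment the counts were 1 (4 h) and 19 (6 h) in C28P, 6 and 11 in C35P and 4 (4 h) in C28PLT, and 18, 5 and 7 between 12 and 24 h. The shares of all genes that fell with this block are given above. With the length and GC offset together with the block the counts were 3 (4 h) and 34 (12 h) in C28P, where 6.94% and 15.3% of all genes fell. They were 5 (4 h) and 16 (6 h) in C35P (8.45% and 13.8%) and 3 (4 h) and 6 (6 h) in C28PLT (9.94% and 13.8%). Between 12 and 24 h they were 6 and 12 in C35P and C28PLT (0.806% and 1.14%). With the offset alone they were 7 (6 h) in C35P and 2 (4 h) in C28PLT, against 11.5% and 8.05% of all genes. Between 12 and 24 h they were 3, 0 and 9, against 0.912%, 0.396% and 0.7%.

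Scaling by total counts gave 1 (4 h) in C28P and 2 (4 h) and 5 (6 h) in C28PLT, against 2.95%, 5.08% and 8.56% of all genes. Between 12 and 24 h it gave 4 and 8 in C28P and C28PLT, against 0.251% and 0.328%. DESeq2's size factors gave 1 and its Wald test 4 between 12 and 24 h in C35P, against 0.198% and 0.603% of all genes. Without a filter the counts were 3 (6 h) in C28P and 0 (4 h) in C28PLT, against 5.68% and 3.02% of all genes. Between 12 and 24 h they were 4, 0 and 2, against 0.264%, 0.0959% and 0.147%. Fitting only the groups compared leaves fewer libraries to estimate the spread. The counts were then 2 (6 h) and 6 (12 h) in C28P, against 4.22% and 5.66% of all genes. In C35P they were 0 (4 h), 2 (6 h), 9 (12 h) and 24 (24 h), against 3.08%, 6.22%, 8.77% and 6.82%. In C28PLT they were 0 (4 h), 11 (12 h) and 17 (24 h), against 3.75%, 11.4% and 6.01%. Between 12 and 24 h they were 0 in all 3, against 0.199%, 0% and 0%. The summed level changed by -1.07 in C28P and -0.951 in C35P in CPM, against -0.729 and -0.704 as shares. For all of these the cause was not tested.

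Leaving out 1 experiment or 1 library gave ranges of 0 to 1 (4 h), 2 to 12 (6 h), 6 to 20 (12 h) and 31 to 39 (24 h) in C28P, 0 to 3, 0 to 6, 9 to 31 and 22 to 38 in C35P, and 0 to 1, 0 to 3, 10 to 34 and 22 to 35 in C28PLT. Between 12 and 24 h they were 0 to 8, 0 to 1 and 0 to 3. Over these fits the share of all genes that fell at 24 h was 7.01% to 16.9%, 6.97% to 14.2% and 6.63% to 10.4%. At 12 h it was 4.46% to 11.9%, 7.14% to 11.8% and 6.79% to 11.3%. At 6 h it was 2.59% to 12.8%, 4.39% to 8.59% and 3.77% to 7.21%. At 4 h it was 0.266% to 5.66%, 1.47% to 4.93% and 1.49% to 6.04%. Between 12 and 24 h it was 0.00966% to 0.92%, 0.0241% to 0.196% and 0.0145% to 0.463%. The summed share changed by -0.714 to -0.76 in C28P, -0.615 to -0.772 in C35P and -0.705 to -0.893 in C28PLT.

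Signs turned only for genes that were not called. With scaling by total counts LHCB1.1 became 0.146 in C28P and 0.216 in C35P, and PSBS 0.0156 in C28P. Over the fits that left out an experiment or a library, LHCB1.1 ranged from -0.207 to 0.21 in C35P and from -0.121 to 0.383 in C28PLT. In C28PLT LHCB1.3 ranged from -0.401 to 0.0802, LHCA5 from -0.214 to 0.143 and PSBS from -0.107 to 0.227. Without single libraries LHCB1.1 was also 0.113 and 0.0605 in C35P and -0.0292 in C28PLT, LHCA5 0.127 and PSBS -0.0323, and without experiment 2 LHCA5 was 0.0429, the last 3 in C28PLT.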
